A study of Mus musculus with 7 samples.

Results

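The mouse lipoxygenases *Alox5*, *Alox8*, *Alox12*, *Alox12b*, *Alox12e*, *Alox15* and *Aloxe3* were examined by RNA-seq in skin papillomas from 4 control (CTR) and 3 *Nanog*-transgenic (TG) mice. The genes were taken by symbol from the table of each papilloma, and all 7 were found among 23284 gene symbols. Both groups were C57Bl/6 littermates carrying the *tetO-Nanog* allele. Papillomas were raised with DMBA, a carcinogen that initiates tumors, and repeated TPA, which promotes them, and both groups drank water with doxycycline (DOX) at 2 mg/ml. TG mice carried in addition the *K5-rtTA* transactivator, whose keratin 5 promoter switches the allele on in basal keratinocytes, so other cell types of the papilloma were not targeted directly. Each library came from a different mouse. After the TPA treatment, mice were kept under observation for a further period. A papilloma was taken at the end of that period or earlier if a humane endpoint was reached. The paper reports that many TG mice were sacrificed early, and the labels do not give the time at which each papilloma was taken. Levels are given as FPKM, a measure of fragments scaled by transcript length and library size, which allows levels of different genes to be set side by side.

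Lipoxygenases add oxygen to polyunsaturated fatty acids and yield hydroperoxides, which other enzymes turn into signaling lipids such as leukotrienes. In the epidermis, *Alox12b* and *Aloxe3* encode enzymes that act in sequence on the linoleate of acylceramides, a step needed to bind lipids to the cornified envelope and to form the skin barrier, and loss of either gene causes ichthyosis in humans. *Alox8* encodes a lipoxygenase that phorbol esters such as TPA induce in mouse skin, *Alox12* the platelet-type and *Alox12e* the epidermal-type enzyme, *Alox15* the leukocyte-type enzyme, and *Alox5* the enzyme that starts leukotriene synthesis in leukocytes.

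In the deposited GRCm38 coordinates, *Aloxe3* (chr11:69126377-69149115), *Alox12b* (chr11:69157072-69169791) and *Alox8* (chr11:69183885-69197839) were neighbors, with gaps of 7956 and 14093 bases. *Alox12* (chr11:70241455-70255341), *Alox12e* (chr11:70315613-70322518) and *Alox15* (chr11:70344147-70352031) followed after 1043615 bases, and *Alox5* (chr6:116410071-116461178) lay apart. *Aloxe3* and *Alox12b* are on the plus strand and the other 5 on the minus strand, and all 7 are annotated as protein coding. RefSeq promoter sequences (GRCm38.p6) matched 5 of the 7 genes. Sequence before the start is shown for the member with the highest level (*Alox12b*), the member with the largest excess of a single papilloma over the next (*Alox8*) and the member whose groups did not overlap (*Alox5*). Capitals mark the GC box GGGCGG, read on either strand. The *Alox12b* sequence is chr11:69156822-69156988 on the plus strand, *Alox8* is chr11:69197844-69198093 on the minus strand and *Alox5* is chr6:116461179-116461428 on the minus strand.
Alox12b: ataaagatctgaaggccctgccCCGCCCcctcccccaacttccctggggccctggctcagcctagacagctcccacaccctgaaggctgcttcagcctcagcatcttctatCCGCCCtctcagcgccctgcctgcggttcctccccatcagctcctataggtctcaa
Alox8: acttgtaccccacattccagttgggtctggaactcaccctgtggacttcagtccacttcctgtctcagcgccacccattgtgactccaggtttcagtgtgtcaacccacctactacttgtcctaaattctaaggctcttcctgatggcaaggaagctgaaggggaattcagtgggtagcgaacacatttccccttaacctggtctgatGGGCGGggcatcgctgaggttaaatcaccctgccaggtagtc
Alox5: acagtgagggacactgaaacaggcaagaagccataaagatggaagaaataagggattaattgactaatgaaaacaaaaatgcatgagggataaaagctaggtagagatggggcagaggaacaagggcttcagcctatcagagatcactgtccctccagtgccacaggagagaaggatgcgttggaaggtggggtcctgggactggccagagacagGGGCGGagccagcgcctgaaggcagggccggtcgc
In the 250 bases before the RefSeq start, the GC box was found 3 times for *Alox12b*, at 228, 139 and 19 bases before the start, the last of them in bases not printed here. It was found once for *Alox8* (42 bases before), once for *Alox5* (35 bases), 2 times for *Alox12* and 1 time for *Alox12e*, while 32.74% of 32851 promoters hold at least 1. The AP-1 letters TGANTCA, the TATA letters TATAAA and the homeodomain core TAATTA had 0 matches on either strand in these 5 windows, and were present in 6.749%, 12.37% and 4.84% of all promoters. These matches describe letters in a window and not bound sites.

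The width of the Cufflinks intervals implied between 10077008 and 15711400 reads per library, with CTR 3 and TG 1 the deepest. *Nanog* itself was higher in TG papillomas by 3.45 on the log2(FPKM + 0.5) scale (adjusted p = 0.400 from limma). The induced gene thus did not pass here, while the paper, with the Cufflinks test, lists it among genes higher in TG. A gene that does not pass below is therefore not shown to be unchanged. Markers of basal keratinocytes were abundant in every papilloma, with summed levels of 6604 to 12856 FPKM over 6 genes. TG 3 stood apart. Its summed markers reached 677.9 FPKM for fibroblasts, 462 for skeletal muscle and 117 for adipocytes, against at most 128.6, 2.58 and 0.198 FPKM in the other papillomas. Several results are therefore also given without it, though not every result that moved. In such bulk tissue, fewer cells of a type and less RNA per cell cannot be told apart.

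*Alox12b* and *Aloxe3* made up nearly all lipoxygenase RNA. Together they accounted for 91.7% (TG 2) to 98.3% (CTR 3) of the summed FPKM of the 7 genes, a sum that ranged from 223.7 to 379.9 FPKM. Ranked by mean FPKM among 23122 symbols, *Alox12b* was at position 225 and *Aloxe3* at 999, followed by *Alox12* at 6956, *Alox8* at 8436, *Alox12e* at 10883, *Alox15* at 11271 and *Alox5* at 11686. The order *Alox12b*, *Aloxe3*, then each of the others held in 7 of 7 papillomas. *Alox12* exceeded *Alox8* in 6 of 7, TG 2 being the exception. *Alox8*, *Alox12e*, *Alox15* and *Alox5* had no stable order, apart from *Alox8* exceeding *Alox5* in 6 of 7 papillomas. *Alox8* exceeded *Alox12e* in 4 and *Alox15* in 4, *Alox12e* exceeded *Alox15* in 3 and *Alox5* in 4, and *Alox15* exceeded *Alox5* in 3.

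**Figure D1:**
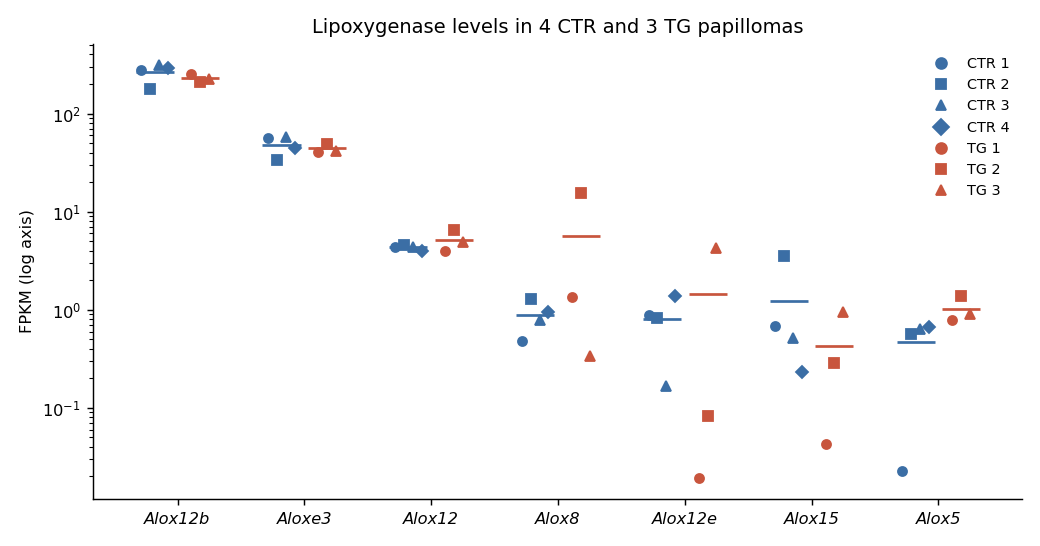
FPKM on a log axis of the 7 lipoxygenase genes in each CTR (blue) and TG (red) papilloma, with horizontal bars at the group means and marker shapes for the replicate number. *Alox12b* and *Aloxe3* lie far above the others with overlapping groups, while *Alox8* reaches 15.4 FPKM in TG 2 and *Alox12e* 4.21 FPKM in TG 3.

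TG and CTR papillomas were compared for 12299 genes with limma, which fits a linear model per gene and shares information on the variance between genes. 0 of the 7 lipoxygenases passed an adjusted p of 0.05, and 0 passed an unadjusted p of 0.05 in either direction. With sample quality weights, which give less weight to papillomas that stand apart, *Alox8*, *Alox5* and *Alox12* passed the unadjusted threshold in limma (unadjusted p of 0.00165, 0.0185 and 0.0204), and 0 passed the adjusted one. In that weighted fit 1161 of the 12299 genes were higher and 1248 lower in TG at an unadjusted p of 0.05. There 49 higher and 36 lower genes passed the adjusted threshold. Without weights, 0 (0.0%) of all genes passed the adjusted threshold, while 598 genes (4.86%) were higher and 241 (1.96%) lower in TG at an unadjusted p of 0.05. The median log2 difference of the lipoxygenases was -0.10, with 3 above and 4 below 0, against a median of 0.06 over all genes tested. Both medians turned with single papillomas. That of the lipoxygenases was 0.34 without TG 1 and 0.08 without CTR 4, and that of all genes was -0.03 without TG 3. Every TG papilloma lay above every CTR papilloma for 1 member, *Alox5*, as for 4.93% of all genes tested, and every TG papilloma lay below for 0 members, against 2.23% of all genes. *Alox5* reached the level for testing only through its TG values. With 4 and 3 papillomas, the smallest p that the exact two-sided permutation test can give is 0.0286.

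**Figure D2:**
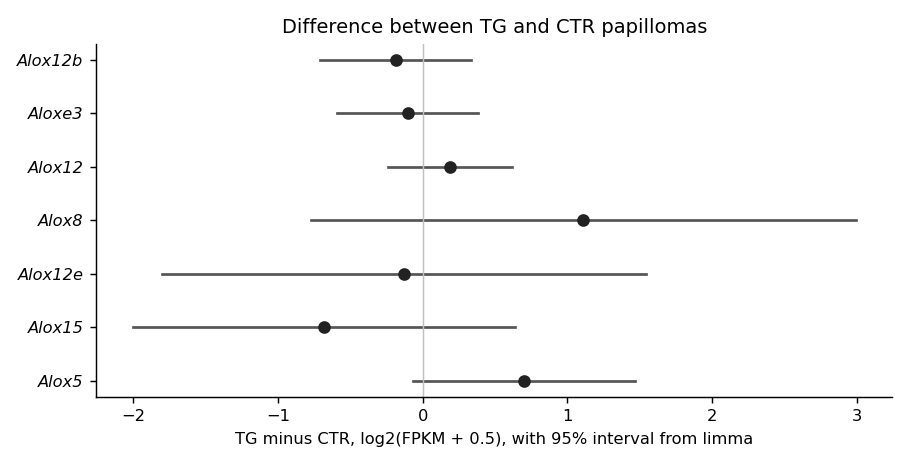
Difference between TG and CTR papillomas on the log2(FPKM + 0.5) scale for each lipoxygenase (points) with the 95% interval from limma (lines), n = 4 CTR and 3 TG. All 7 intervals span 0, and they are narrowest for *Alox12*, *Aloxe3* and *Alox12b* and widest for *Alox8* and *Alox12e*.

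*Alox12b*, the first enzyme of the barrier pair, was at 279.2, 179.1, 315.1 and 294.6 FPKM in CTR 1 to CTR 4, and at 250.7, 212.2 and 226.3 FPKM in TG 1 to TG 3. The TG values fell inside the CTR range, of which CTR 2 was the low end. The means were 267 ± 60.4 FPKM (SD, n = 4) in CTR and 229.8 ± 19.5 FPKM (SD, n = 3) in TG papillomas, a log2 difference of -0.19 with a 95% interval of -0.71 to 0.33 (adjusted p = 0.928). Without CTR 2 the difference was -0.37 and the groups no longer overlapped, at an unadjusted p of 0.0797 from limma.

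*Aloxe3*, which isomerizes the product of *Alox12b*, was at 56.3, 33.9, 58.3 and 44.9 FPKM in CTR 1 to CTR 4 and at 41.0, 49.5 and 41.8 FPKM in the TG papillomas. Here too the TG values lay within the CTR range, and CTR 2 was lowest. The log2 difference was -0.10 with a 95% interval of -0.59 to 0.38 (adjusted p = 0.967 from limma). The log2 ratio of *Aloxe3* to *Alox12b*, after adding 0.5 to both, averaged -2.45 ± 0.175 (SD, n = 4) in CTR and -2.37 ± 0.258 (SD, n = 3) in TG papillomas. The ratio differed by 0.08 between groups (exact permutation p = 0.686), less than the spread within either group.

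*Alox12* was at 4.36, 4.56, 4.39 and 4.01 FPKM in CTR 1 to CTR 4, the smallest SD relative to the mean among the CTR groups, and at 3.94, 6.47 and 4.86 FPKM in TG 1 to TG 3. TG 2 and TG 3 exceeded every CTR papilloma and TG 1 was below them. The means were 4.33 ± 0.232 FPKM (SD, n = 4) and 5.09 ± 1.28 FPKM (SD, n = 3), a log2 difference of 0.19 with a 95% interval of -0.24 to 0.61 (adjusted p = 0.907 from limma). Without TG 2 the difference was 0.01, and without TG 1 it was 0.34. Summed markers of platelets, another source of this enzyme, were at 1.86 to 16.7 FPKM in CTR and 2.32 to 561.7 FPKM in TG papillomas, the highest being TG 3, where *Ppbp* alone was at 557.7 FPKM. The platelet gene *Gp9* was at 0.0731 FPKM in TG 3, at 0.0687 FPKM in CTR 2 and listed at 0 in the other 5 papillomas. *Pf4* (0.704 to 3.13 FPKM) and *Itga2b* (0.675 to 1.65 FPKM) had values in every papilloma. Of the 5 platelet markers 1 separated the groups, *Gp1ba*, at 0.147 to 0.195 FPKM in TG and 0.0352 to 0.0679 FPKM in CTR papillomas. *Gp1ba* was below the level for testing, and among all genes tested TG lay above in the same way for 4.93%. The part of platelets in the *Alox12* levels was not tested.

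*Alox8* showed the largest excess of a single papilloma, TG 2 being 11.3 times the next highest. In CTR 1 to CTR 4 it was at 0.485, 1.28, 0.794 and 0.960 FPKM, and in TG 1 to TG 3 at 1.36, 15.4 and 0.338 FPKM. TG 2 was far above the other 6 papillomas, TG 1 was slightly above the highest CTR value, and TG 3 was the lowest of all. The level in TG 2 rested on 893 implied reads, against 18 to 117 in the others. *Alox8* took 5.38% of the summed lipoxygenase FPKM in TG 2 and 0.121% to 0.574% elsewhere. The means were 0.880 ± 0.333 FPKM (SD, n = 4) in CTR and 5.69 ± 8.39 FPKM (SD, n = 3) in TG papillomas, a log2 difference of 1.11 with a 95% interval of -0.78 to 3.00 (adjusted p = 0.852 from limma). Single papillomas set this value, which was -0.11 without TG 2 and 2.01 without TG 3, with the groups then separated (unadjusted p = 0.0216 from limma). The log2 ratio of *Alox8* to *Alox12b* reached -3.75 in TG 2, with the other papillomas at -8.15 to -6.65, and was higher in TG papillomas by 1.3 (exact permutation p = 0.343). Without TG 2 that difference was 0.0206. Of the 40-base words of *Alox8* transcripts, 2.375% also occur in transcripts of other genes, and none in another lipoxygenase.

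The genes whose log2 levels followed *Alox8* most closely over the 7 papillomas were *Cyfip2* (Pearson r = 0.963), *Pou2f3* (0.959), a transcription factor of differentiating keratinocytes, and *Fgfbp3* (0.953), out of 12298. *Pou2f3* was at 1.24, 2.19, 1.73 and 2.42 FPKM in CTR 1 to CTR 4 and at 3.58, 9.20 and 1.09 FPKM in TG 1 to TG 3, so that TG 2 was again the highest and TG 3 the lowest papilloma. Without TG 2, r was 0.859 for *Cyfip2*, 0.928 for *Pou2f3* and 0.642 for *Fgfbp3* over 6 papillomas. These correlations were picked as the highest of many and the papillomas share their depth and make-up across genes. Of 11 suprabasal and granular keratinocyte markers with a value, 6 were highest in TG 2, among them *Krt1* (3309 FPKM) and *Casp14* (266.3 FPKM), 3 in TG 1, 1 in TG 3 and 1 in CTR 3, and 4 were lowest in TG 3. The summed suprabasal markers were highest in TG 2 (6917 FPKM) and lowest in TG 3 (530.9 FPKM), whereas the granular sum of TG 2 (1551 FPKM) lay below those of CTR 3 (2174 FPKM) and TG 1 (2217 FPKM), and *Lor* was at 690.2 FPKM in TG 2 against 1555 FPKM in CTR 3. The part of differentiated keratinocytes in the *Alox8* levels was not tested.

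*Alox12e* was at 0.887, 0.815, 0.168 and 1.38 FPKM in CTR 1 to CTR 4, and at 0.0192, 0.0830 and 4.21 FPKM in TG 1 to TG 3. TG 3 was the highest papilloma and TG 1 and TG 2 the lowest pair, with values that rested on 1 and 3 implied reads. The log2 difference was -0.13 with a 95% interval of -1.80 to 1.54 (adjusted p = 0.992 from limma). Its sign turned with the papillomas used, from -1.16 without TG 3, where both remaining TG values lay below every CTR value (unadjusted p = 0.0134 from limma), to 0.43 without TG 1. A pseudocount of 1 in place of 0.5 also turned it, to 0.03.

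The closest genes to *Alox12e* over the 7 papillomas were *Fundc1* (Pearson r = 0.995), *Krt79* (0.995), a keratin of the hair follicle opening and sebaceous duct, and *Bmi1* (0.984). *Krt79* was at 4.88, 5.81, 1.33 and 8.36 FPKM in CTR 1 to CTR 4 and at 0.958, 1.53 and 36.3 FPKM in TG 1 to TG 3. CTR 3, TG 1 and TG 2 were thus the 3 lowest papillomas for both genes and TG 3 the highest. Without TG 3, r was 0.993 for *Fundc1*, 0.987 for *Krt79* and 0.960 for *Bmi1* over 6 papillomas. Summed sebocyte markers were at 8.95 FPKM in TG 3 and 0.729 to 1.27 FPKM in the others, a range that did not separate TG 1 and TG 2 from CTR papillomas. The part of sebaceous or follicular cells in the *Alox12e* levels was not tested.

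**Figure D3:**
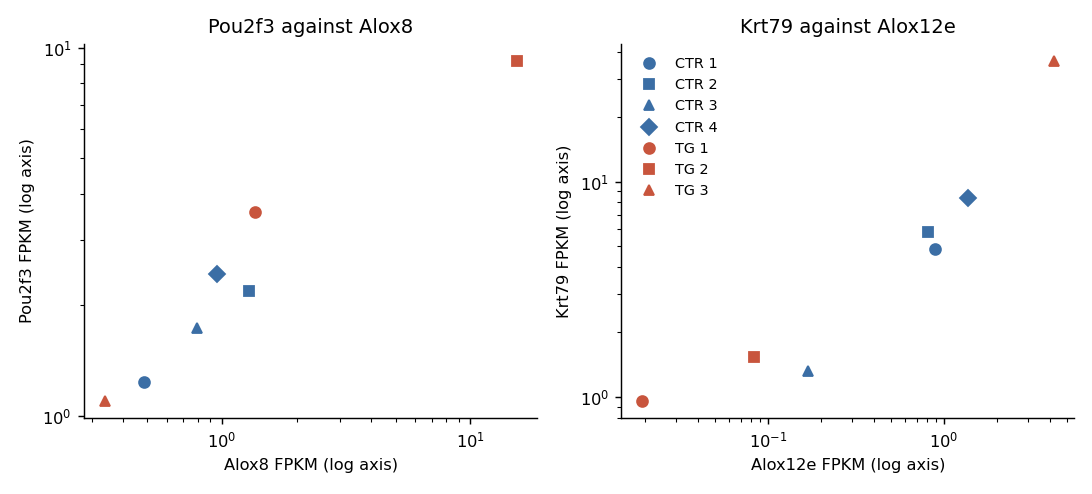
FPKM of *Pou2f3* against *Alox8* (left) and of *Krt79* against *Alox12e* (right) in each papilloma, all axes logarithmic, CTR in blue and TG in red. TG 2 is at the top right for *Alox8* and TG 3 for *Alox12e*, and in both panels the remaining papillomas follow the same order closely (Spearman rho of 0.964 and 0.929 over 7 papillomas).

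*Alox15* was at 0.682, 3.52, 0.510 and 0.234 FPKM in CTR 1 to CTR 4 and at 0.0426, 0.284 and 0.952 FPKM in TG 1 to TG 3. CTR 2 was the highest and TG 1 the lowest, the latter with 2 implied reads. The means were 1.24 ± 1.53 FPKM (SD, n = 4) and 0.426 ± 0.471 FPKM (SD, n = 3), and the log2 difference was -0.69 with a 95% interval of -2.01 to 0.64 (adjusted p = 0.876 from limma). Without CTR 2 it was -0.17, without TG 1 it was -0.36 and without TG 3 it was -1.07. Summed macrophage and dendritic cell markers were at 22.0 to 25.6 FPKM in CTR and 20.8 to 39.2 FPKM in TG papillomas. CTR 2, with the highest *Alox15*, had the lowest sum of the CTR group through *Cd68* (15.4 FPKM). It also had the highest CTR values of *Mrc1* (1.41 FPKM) and *Itgax* (1.87 FPKM), and was neither highest nor lowest in CTR for the rest. The part of these cells in the *Alox15* levels was not tested.

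*Alox5* was the member that separated the groups. It was at 0.0227, 0.564, 0.634 and 0.668 FPKM in CTR 1 to CTR 4 and at 0.782, 1.39 and 0.902 FPKM in TG 1 to TG 3, so that each TG value exceeded each CTR value in 12 of 12 pairs. The nearest pair, TG 1 (53 implied reads, interval 0.567 to 0.996 FPKM) and CTR 4 (28 reads, 0.416 to 0.921 FPKM), overlapped in counting error, and CTR 1 rested on 1 implied read. The means were 0.472 ± 0.303 FPKM (SD, n = 4) in CTR and 1.02 ± 0.321 FPKM (SD, n = 3) in TG papillomas. The CTR mean was below the filter of 0.5 FPKM, so *Alox5* was tested only through its TG values, and its separation is a description. The log2 difference of 0.70 had a 95% interval of -0.07 to 1.46 (unadjusted p = 0.0699, adjusted p = 0.784 from limma; exact permutation p = 0.0571), and did not pass. Without CTR 1 the difference was 0.42. Under quantile normalization the groups overlapped.

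Markers of leukocytes, in which *Alox5* is best known, were examined beside it. For comparison, every TG papilloma lay above every CTR papilloma for 4.93% of all genes tested, and below for 2.23%. Summed neutrophil markers were at 5.41 to 10.5 FPKM in CTR and 9.56 to 41.9 FPKM in TG papillomas, and 0 of the 5 markers found separated the groups, although *Cxcr2* was higher in TG in 11 of 12 pairs (unadjusted p = 0.0155, adjusted p = 0.686 from limma). *Camp* was listed at 0 in all papillomas but CTR 4 (0.0894 FPKM). Summed mast cell markers were at 2.93 to 5.84 FPKM in CTR and 2.73 to 8.70 FPKM in TG papillomas. Of these 7 markers 1, *Ms4a2*, was above in every TG papilloma, at no more than 0.163 FPKM and below the level for testing. The macrophage and dendritic cell sums are given above for *Alox15*. Of these 6 markers 0 separated the groups, and *Csf1r* was higher in TG in 10 of 12 pairs (unadjusted p = 0.0344, adjusted p = 0.705 from limma). Summed eosinophil markers were at 0.202 to 0.706 FPKM in CTR and 1.39 to 2.52 FPKM in TG papillomas, mostly from *Ccr3*. Of the 4 markers found 2, *Ccr3* and *Ear1*, were above in every TG papilloma. *Ear1* was below the level for testing, and *Ccr3* reached it only through the TG papillomas. The defining *Epx* was listed at 0 in all 7 papillomas and *Prg2* in 6 of 7. TG 2, with the highest *Alox5*, was the lowest TG papilloma for the neutrophil and eosinophil sums. TG 1, with the lowest *Alox5* of the TG group, was the lowest TG papilloma for the mast cell and macrophage sums. The part of leukocyte number in the *Alox5* levels was not tested.

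Because libraries CTR 3 and TG 1 were deeper than the others, the comparison was repeated with the 5 papillomas of lower depth. The log2 differences were then 0.91 for *Alox5*, 1.41 for *Alox8*, 0.35 for *Alox12*, -0.16 for *Alox12b*, 0.14 for *Alox12e*, -0.51 for *Alox15* and 0.04 for *Aloxe3*. The signs of *Alox12e* and *Aloxe3* turned, and 0 of the 7 passed an adjusted or unadjusted p of 0.05. The 2 deeper libraries, 1 of each group, give no test of their own.

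The genes around the lipoxygenases were described in 5 lists by role, and 0 genes of any list passed the adjusted threshold. For comparison, 4.86% of all genes tested were higher and 1.96% lower in TG at an unadjusted p of 0.05. Of the 9 genes that release fatty acids from lipids or phospholipids, 8 were tested, 0 were higher and 1 lower at an unadjusted p of 0.05, and the median log2 difference was -0.11 (0.0347 without TG 3, 0.0351 without CTR 1). The lower gene, the cytosolic phospholipase *Pla2g4b*, was at 53.3, 24.4, 55.3 and 38.3 FPKM in CTR 1 to CTR 4 and at 28.4, 26.7 and 20.2 FPKM in TG 1 to TG 3. The groups overlapped, through CTR 2, and the log2 difference was -0.70 (unadjusted p = 0.0386, adjusted p = 0.715 from limma). Without TG 3 it was -0.56 and no longer passed (unadjusted p = 0.12 from limma). *Pla2g2f*, named after its values were seen, moved the other way. Its log2 difference was 1.47 with all papillomas (unadjusted p = 0.118 from limma). Without TG 3 that difference was 2.52 (unadjusted p = 0.0034, adjusted p = 0.196 from limma). In that setting 640 of 12299 genes were higher and 539 lower at an unadjusted p of 0.05.

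Leukotriene synthesis and breakdown was represented by 9 genes. Of the 8 tested, 2 were higher and 1 lower in TG at an unadjusted p of 0.05, against 4.86% and 1.96% of all genes tested. The median log2 difference was 0.64. That median rested on TG 3 and was -0.0248 without it. *Alox5ap*, the membrane protein that presents substrate to the *Alox5* enzyme, was at 2.08, 4.15, 3.69 and 3.67 FPKM in CTR 1 to CTR 4 and at 4.04, 5.45 and 11.1 FPKM in TG 1 to TG 3. TG exceeded CTR in 11 of 12 pairs, and CTR 1 was lowest, as it was for *Alox5*. Its log2 difference was 0.84 (unadjusted p = 0.0354, adjusted p = 0.706 from limma), and 0.45 without TG 3 (unadjusted p = 0.138). *Ltc4s*, named after its values were seen, was at 7.17, 5.67 and 1.26 FPKM in TG 1 to TG 3. In CTR papillomas it was at 0.681 to 2.39 FPKM. The log2 difference of *Ltc4s* was 1.09 (unadjusted p = 0.0617 from limma), and 1.75 without TG 3 (unadjusted p = 0.000908, adjusted p = 0.119 from limma). Of 12299 genes, 640 were higher at an unadjusted p of 0.05 without TG 3.

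*Dpep2*, a dipeptidase that trims cysteinyl leukotrienes, was at 0.205, 0.627, 0.681 and 0.821 FPKM in CTR 1 to CTR 4 and at 1.48, 1.74 and 1.34 FPKM in TG 1 to TG 3. The groups did not overlap, with TG above as for 4.93% of all genes tested, and CTR 1 was again the lowest papilloma. The log2 difference was 0.93 (unadjusted p = 0.00721, adjusted p = 0.595 from limma). *Ptgr1*, a reductase that inactivates leukotrienes and prostaglandins, lay lower in every TG papilloma, as did 2.23% of all genes tested. It was at 64.9 to 82.7 FPKM in TG against 146.8 to 207.5 FPKM in CTR papillomas. The log2 difference of *Ptgr1* was -1.22 (unadjusted p = 0.000172, adjusted p = 0.498 from limma), and -1.29 without TG 3 (adjusted p = 0.0872 from limma). Of the 7 receptors listed for lipoxygenase products, 3 reached the level for testing, and 0 of them passed an unadjusted p of 0.05. *Fpr2* reached it only through TG 3 (6.92 FPKM, against at most 0.345 FPKM elsewhere). The leukotriene receptors *Ltb4r1* and *Ltb4r2* had log2 differences of 0.38 and 0.39. Without TG 3 these were 0.65 (unadjusted p = 0.0319, adjusted p = 0.451 from limma) and 0.51, where 640 of 12299 genes were higher at an unadjusted p of 0.05. The receptors were named after their values were seen.

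The acylceramide pathway, in which *Alox12b* and *Aloxe3* act, held no gene that passed a threshold. Values were available for 12 of its 13 listed genes, from the fatty acid elongase *Elovl4* to the crosslinking enzyme *Tgm1*. Their log2 differences lay between -0.17 and 0.40 with a median of 0.08 (0.17 without TG 3, -0.14 without CTR 2, -0.0322 without TG 2), 7 above and 5 below 0, and 0 passed an unadjusted p of 0.05 or separated the groups.

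Among 6 genes for the turnover of hydroperoxides and epoxides, 1 was higher and 1 lower at an unadjusted p of 0.05. The shares over all genes tested were 4.86% and 1.96%. The median log2 difference of the 6 was 0.10 (-0.0401 without TG 3, -0.0558 without TG 1). *Gpx2*, a glutathione peroxidase, was at 332.3, 342.9, 379.4 and 260.9 FPKM in CTR 1 to CTR 4 and at 260.0, 122.6 and 160.6 FPKM in TG 1 to TG 3. The groups did not overlap, with TG below as for 2.23% of all genes tested, though CTR 4 and TG 1 nearly met. The log2 difference was -0.92 (unadjusted p = 0.00842, adjusted p = 0.608 from limma). *Ephx2*, the soluble epoxide hydrolase, was at 0.681, 0.850, 0.383 and 0.655 FPKM in CTR 1 to CTR 4 and at 1.01, 0.932 and 2.05 FPKM in TG 1 to TG 3. All TG values were above the CTR values, as for 4.93% of all genes tested, with TG 3 the highest. The log2 difference was 0.65 (unadjusted p = 0.0475, adjusted p = 0.729 from limma), and 0.38 without TG 3 (unadjusted p = 0.111).

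**Figure D4:**
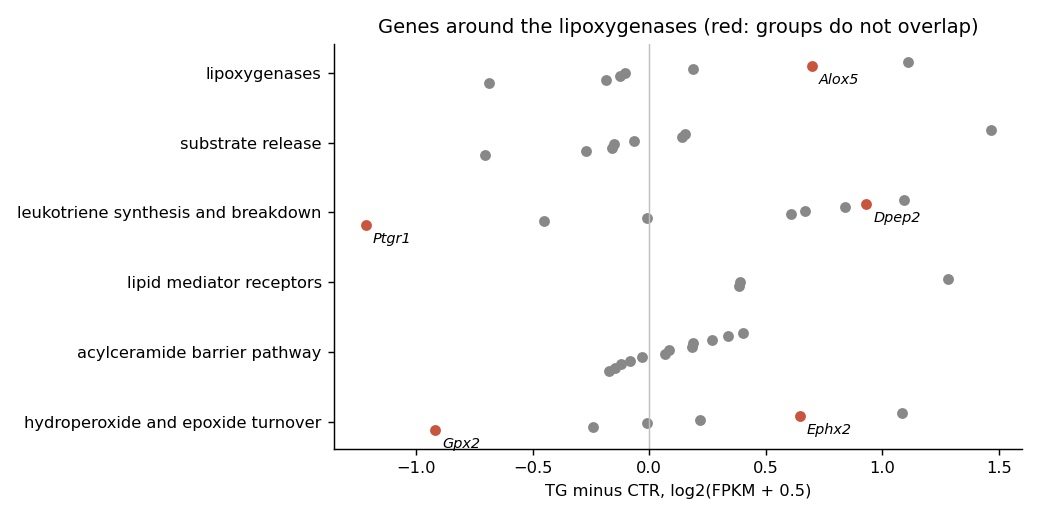
Log2 differences between TG and CTR papillomas for the lipoxygenases and 5 lists of genes around them, each point 1 tested gene, n = 4 CTR and 3 TG. Red points with names mark genes whose groups did not overlap, and the acylceramide genes lie in the narrowest band, between -0.17 and 0.40.

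The genes closest to the barrier pair and to *Alox12* over the 7 papillomas were others than the lipoxygenases. *Cirh1a*, *Cd3eap* and *Kifc5b* were closest to *Alox12b* (Pearson r of 0.960, 0.959 and 0.957), and *Aloxe3* came at position 409 of 12298 with r = 0.750. *Map2k7*, *Trpm4* and *Ddx27* were closest to *Aloxe3* (0.969, 0.963 and 0.957), and *Zfp949*, *Nsg1* and *Tnfrsf4* to *Alox12* (0.969, 0.965 and 0.957). With 7 papillomas and 12298 genes, correlations of this height are a description of likeness only.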

How the data were processed

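Total RNA from papillomas of 4 CTR and 3 TG mice was made into stranded polyA+ libraries and read for 40 bases. The authors aligned the reads with TopHat 2.0.4, which called Bowtie 0.12.7 and also Samtools 0.1.16, to the GRCm38/mm10 build, allowing mismatches and multiple hits, and deposited FPKM values from Cufflinks 1.3.0 for each library, with intervals. FPKM are not counts, and reads were implied from the interval as the square of 2 times the value over its upper half-width, a counting error only; 23 of 49 lipoxygenase values came within 0.05 of a whole read, so these reads are approximate. Entries of a symbol were summed and 162 symbols with a failed estimate left out.

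Values were tested as log2(FPKM + 0.5) with limma 3.58.1 (R 4.3.3, trended variance) for genes whose mean reached 0.5 FPKM, with Benjamini-Hochberg adjustment at 0.05, and single values by exact two-sided permutation over 35 splits. The fit was also run on simulated independent values with added changes larger than the main differences of the lipoxygenases. That run held no papilloma that stands apart and cannot show whether smaller differences would be found. Fold changes on this scale understate those of low genes. Tables were made in Python 3.11.15 (pandas 2.3.3, numpy 2.4.6, scipy 1.17.1) and figures with matplotlib 3.10.9. Named genes were the 7 lipoxygenases, and listed pathway genes whose groups did not overlap or whose unadjusted p was under 0.05. For lipoxygenases with a mean of at least 1 FPKM, the 3 genes of highest Pearson r were also named. Marker genes, the receptors, *Pla2g2f* and *Ltc4s* were named after their values were seen. The members and lists were chosen with earlier results of these data known. The alternatives were other pseudocounts, filters and scalings, quality weights, no variance trend, a replicate block and leaving out each papilloma; the papillomas of lower depth, and the pathway lists without each papilloma, were added after seeing the data. Promoters are from RefSeq, and shared 40-base words were counted in GENCODE transcripts.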

Additional observations from a re-analysis of the deposited data

Results flagged for a closer look

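2 of 13 genes examined had a CTR papilloma that lay far from the other 3, by the gap to its nearest neighbor relative to the range of the group; chance flags about 1 in 20 groups. *Alox5* was at 0.0227 FPKM in CTR 1, from 1 implied read, with a gap over range of 0.838. *Alox15* was at 3.52 FPKM in CTR 2, from 110 implied reads, with a gap over range of 0.863.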

How the results depend on the processing

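Adjusted p-values of the 7 lipoxygenases stayed above 0.05 under every alternative run, the lowest being 0.0682 for *Alox8* with sample quality weights (range over its alternatives 0.0682 to 0.999), where its log2 difference was 2.83. Those weights also took *Alox5* to 0.83, *Alox12* to 0.44 and *Alox12e* to -0.95. *Alox5*, *Alox8* and *Alox12* then passed an unadjusted p of 0.05, where over all genes tested 1161 were higher and 1248 lower. *Alox5*, *Alox12*, *Alox12b* and *Alox15* kept their direction under all alternatives run. *Alox12e* turned to 0.0293 with a pseudocount of 1, 0.0759 with the replicate block and 0.137 in the papillomas of lower depth, where *Aloxe3* turned to 0.0449. The value with the replicate block is the same as without CTR 4. Sample quality weights gave 49 higher and 36 lower genes past the adjusted threshold, and the papillomas of lower depth 1 higher. Under quantile normalization 0 lipoxygenases lay above in every TG papilloma. Leaving out 1 papilloma at a time gave 0 to 2 genes higher and 0 to 1 lower at the adjusted threshold, and log2 differences of 0.42 to 0.81 for *Alox5*, -0.11 to 2.01 for *Alox8*, 0.01 to 0.34 for *Alox12*, -0.37 to -0.10 for *Alox12b*, -1.16 to 0.43 for *Alox12e*, -1.07 to -0.17 for *Alox15* and -0.26 to -0.0045 for *Aloxe3*. The ratio of *Aloxe3* to *Alox12b* then differed by -0.0573 to 0.197, negative without CTR 4 or TG 2, and that of *Alox8* to *Alox12b* by 0.02 to 2.19. Between 1 and 2 members then lay above and 0 to 1 below in every TG papilloma, with *Alox12* added without TG 1, *Alox8* and *Alox12e* without TG 3, and *Alox12b* without CTR 2. The median of the leukotriene list ranged from -0.0248 (without TG 3) to 0.815, an alternative added after seeing the data. At an unadjusted p of 0.05, 364 to 1161 genes were higher and 122 to 1248 lower over the alternatives. A filter at a mean of 2 FPKM left out *Alox5*, *Alox12e* and *Alox15*. Causes of these shifts were not tested.

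No source says that replicate numbers shared by both groups pair the papillomas, and they were not treated as pairs. Deviations of same-numbered papillomas correlated by -0.186, 0.0431 and -0.146, and no TG papilloma correlated best with the CTR papilloma of its own number. Correlations of so few papillomas cannot settle whether they were paired. With the replicate block 0 genes were called and log2 differences were 0.81 for *Alox5*, 1.15 for *Alox8* and -0.13 for *Alox12b*. Implied reads limit *Alox5*, *Alox12e* and *Alox15*, where single libraries rest on 1 to 3 reads.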
